A study of Mus musculus with 6 samples.

Results

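The genes described here encode the proteins of the cytosolic ribosome in mouse brain endothelial cells, the tagged gene Rpl22 among them. Members were the protein-coding genes of the count matrix whose symbols follow the ribosomal protein pattern (Rpl or Rps with a number, plus Rplp0, Rplp1, Rplp2 and Rpsa). This gave 84 of 53465 genes: 46 of the large subunit, 31 of the small subunit and 7 paralogs (Rpl3l, Rpl7l1, Rpl10l, Rpl22l1, Rpl36al, Rpl39l and Rps27l). A further 6 rows had a matching symbol but are annotated as pseudogenes and were left out. The low-count filter was passed by 77 of the 77 genes of both subunits and by 5 of the 7 paralogs, so 82 members entered the tests.

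The libraries came from cortex brain endothelial cells of male mice aged 8 to 12 weeks. All animals, the controls included, carried tie2-Cre, ai9 and rpl22HA/HA, and were injected either with phosphate buffered saline (PBS, 3 libraries) or with PTZ (3 libraries), both numbered 1, 2 and 4. PTZ is pentylenetetrazol, a convulsant that blocks GABA-A receptors and is used for acute seizure models. The Tie2 promoter behind this Cre works in the endothelium and also in some cells of the blood lineage, ai9 is a Cre-dependent red fluorescent reporter, and rpl22HA places a haemagglutinin tag on Rpl22 after Cre recombination, so that tagged ribosomes can be pulled down with their mRNA. The series is titled a translatome, but the sources used here do not give whether or how ribosomes were isolated, the dose of PTZ or the time to sampling. No label says that the libraries came from separate animals, so p-values here speak of the variation among these 6 libraries alone, and part or all of it may be technical.

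A ribosome holds 1 copy of nearly every ribosomal protein, and cells keep the members' amounts matched by common control of their mRNAs. Most of these mRNAs start with a C followed by a run of pyrimidines, the terminal oligopyrimidine or TOP tract, through which the kinase mTORC1 and the La-related protein Larp1 set how well they are translated. They are short, abundant messages, and each has many processed pseudogene copies in the genome. In endothelial cells, as in other cells, their translation rises with growth signals and falls under nutrient or energy stress.

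The start sites of 7 members are shown for the runs of C and T near the start that are common in this family. The stalk gene Rplp2 and the paralog pair Rpl22 and Rpl22l1 are also described in what follows. Each window holds 15 bases before and 15 from the RefSeq start site on, written 5′ to 3′ on the gene's own strand, with capitals marking each C followed by at least 4 further C or T. The windows were chosen after they were seen. They lie at chr7:141447636-141447665 (Rplp2, plus strand), chr4:86857353-86857382 (Rps6, minus strand), chr7:4792950-4792979 (Rpl28, plus strand), chr3:90213634-90213663 (Rps27, minus strand), chr9:120571502-120571531 (Rpl14, plus strand), chr3:28805493-28805522 (Rpl22l1, plus strand) and chr4:152325711-152325740 (Rpl22, plus strand) of GRCm38.p6. RefSeq lists 2 starts for Rpl22, the one nearest to the annotated gene start and another at chr4:152324421-152324450, and both are shown.
Rplp2: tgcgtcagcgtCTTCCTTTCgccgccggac
Rps6: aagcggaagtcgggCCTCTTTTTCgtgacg
Rpl28: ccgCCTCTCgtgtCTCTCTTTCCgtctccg
Rps27: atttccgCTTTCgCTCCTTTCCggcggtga
Rpl14: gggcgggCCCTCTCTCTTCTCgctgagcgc
Rpl22l1: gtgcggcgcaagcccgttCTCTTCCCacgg
Rpl22, nearest start: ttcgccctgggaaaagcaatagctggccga
Rpl22, other start: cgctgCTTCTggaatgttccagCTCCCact
The longest marked run was 14 bases in Rpl14, 10 in Rps6 and Rpl28, 9 in Rplp2 and Rps27 and 8 in Rpl22l1, where it lies after the listed start and not on it. The nearest Rpl22 window held none and the other held runs of 5 bases that do not cover the listed start. A listed start of Rps27l that is not shown also held none, while another of its starts held a run of 9 bases. This describes these letters only.

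Start-site sequence was matched for 64 of the 84 members, and motifs were counted beside all 27025 windows of the RefSeq table. On the sense strand from 50 bases before to 50 bases after the start, CTCTTT stood in 19 members (29.7%), against 4.68% of all windows. CTTTCC stood there in 20 members (31.2%), against 5.43% of all windows, and the sequence CTCTTTCC holds both motifs. CCGGAAG, a core that ETS factors bind, was found on either strand from 250 bases before to 50 after the start in 26 members (40.6%), against 9.93% of all windows. These are matches of letters and were not tied to any measurement of binding.

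Gene reads per library ran from 11107481 to 15406967, and the share of reads in no annotated feature was 9.34% in PTZ 1 and 2.99% to 5.19% in the other 5 libraries. The labelled cell type was checked on 14 endothelial markers, all of which passed the filter, and their sum ran from 14607 to 27419 CPM (reads per gene scaled to the same library size, with TMM factors from edgeR). Neuronal markers summed to 14.3 to 41.5 CPM, microglial markers to 1593 to 2926 CPM and red cell markers to 5788 to 11683 CPM. Mural cell markers summed to 196, 293 and 561 CPM in PBS 1, 2 and 4 and to 1065, 335 and 1009 CPM in PTZ 1, 2 and 4. Their part in the results on ribosomal protein genes was not tested.

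The mRNAs of both subunits moved together from library to library, and the libraries differed more within the PTZ group than the groups did from each other. The 46 large subunit genes summed to 15746, 26835 and 19352 CPM in PBS 1, 2 and 4 and to 9800, 32078 and 14515 CPM in PTZ 1, 2 and 4. The 31 small subunit genes summed to 9774, 17399 and 11922 CPM in PBS 1, 2 and 4 and to 6521, 22308 and 8890 CPM in PTZ 1, 2 and 4. In both subunits PTZ 1 was the lowest and PTZ 2 the highest of all 6 libraries, so the PTZ group spanned the whole PBS range. In bulk samples, fewer cells of a type and less of an mRNA per cell cannot be told apart.

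The group means of the sums depended on which PTZ library was counted. The large subunit sum was 20644 ± 5656 CPM in PBS and 18798 ± 11740 CPM in PTZ (SD, n = 3 each), a log2 ratio of -0.14. The small subunit sum was 13032 ± 3932 CPM in PBS and 12573 ± 8514 CPM in PTZ (SD, n = 3 each), a log2 ratio of -0.05. Without PTZ 1 the ratios turned to 0.17 for the large and 0.26 for the small subunit. The difference between the group means was smaller than 1 SD of either group in both subunits, with all libraries and without PTZ 1. Without PTZ 2 the log2 ratio was -0.80 in both subunits, a gap larger than the PBS SD.

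**Figure D1:**
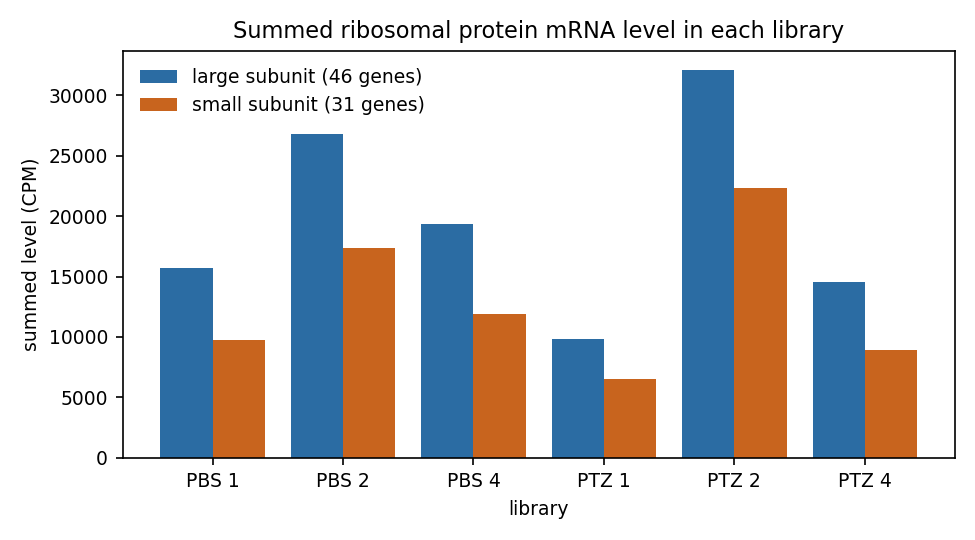
Summed level in CPM (vertical axis, from 0) of the 46 large subunit genes and the 31 small subunit genes in each of the 6 libraries (horizontal axis). Bars are single libraries without error bars, and PTZ 1 is lowest (9800 and 6521 CPM) while PTZ 2 is highest (32078 and 22308 CPM) for both subunits.

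Before scaling, the 84 members, paralogs included, took 2.80%, 4.08% and 3.15% of all reads assigned to genes in PBS 1, 2 and 4. In PTZ 1, 2 and 4 the share was 1.90%, 4.74% and 2.47%. The order of libraries was the same before and after scaling. The large to small subunit ratio of the sums stayed between 1.44 (PTZ 2) and 1.63 (PTZ 4). The joint sum of both subunits, paralogs left out, varied 3.33-fold over the libraries. Across the PBS libraries alone the joint sum varied 1.73-fold.

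Same-numbered libraries were set side by side, since their deviations from the group means correlated weakly across genes (0.167 to 0.217). No label says what a shared number stands for. In pair 1 the joint sum was 1.56-fold lower in PTZ than in PBS, and in pair 4 it was 1.34-fold lower. In pair 2 it was 1.23-fold higher in PTZ. By gene, PTZ was below PBS in 79 of the 82 tested members in pair 1 (47.3% of all 13768 genes tested), in 4 in pair 2 (49.4% of all genes) and in 77 in pair 4 (50.4% of all genes). The direction of the PTZ difference was thus shared by nearly all members within a pair. It was the same in pairs 1 and 4 and opposite in pair 2.

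The order of libraries was shared by most members. PTZ 1 was the lowest library in 75 of 82 members, against 20% of all genes tested. PTZ 2 was the highest in 77 of 82 members, against 17.2% of all genes. Number 1 was below number 4 and number 4 below number 2 in both groups in 60 of 82 members, against 4.98% of all genes. This is the order of the members' own sums in each group, so the count describes how alike they were and tests nothing. All 60 belonged to the genes of both subunits, and none of the 5 tested paralogs followed that order.

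**Figure D2:**
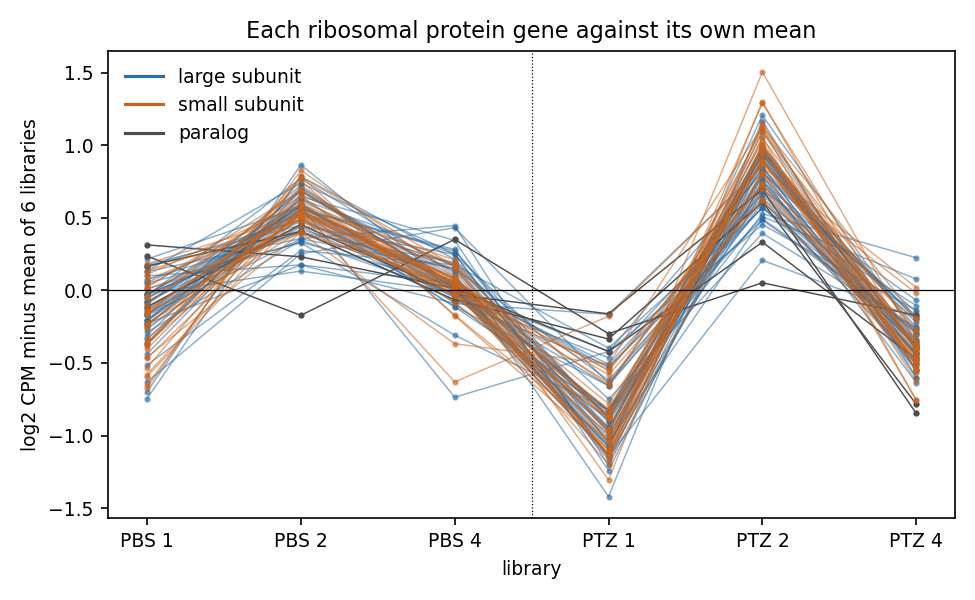
Log2 CPM of each tested ribosomal protein gene minus its mean over the 6 libraries (vertical axis) by library (horizontal axis), with 1 line per gene that only joins its points and colours for large subunit, small subunit and paralog genes. Rpl39l, with 0 reads in PTZ 1, is not drawn, and the lines run as 1 bundle, with PTZ 1 lowest in 75 of 82 tested members and PTZ 2 highest in 77.

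The common movement of the family can be given as a level per library. The median member of both subunits stood 0.16 below its own mean in PBS 1, 0.55 above it in PBS 2 and 0.04 above it in PBS 4, on the log2 scale. In PTZ it stood 0.90 below in PTZ 1, 0.89 above in PTZ 2 and 0.39 below in PTZ 4. Over the 2025 other protein-coding genes with a mean of at least 100 CPM, a mixed set whose medians the scaling holds near 0, they lay between -0.15 (PTZ 1) and 0.11 (PTZ 2). Subtracting the library median lowered the median SD of a member over the 6 libraries from 0.65 to 0.18 on the log2 scale. For the 2025 other genes, less their own library median, it went from 0.313 to 0.304. The members' median was taken from the members themselves, so part of their drop is built into the step.

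Measures of the libraries are given beside this common level as values, and their part was not tested. The endothelial marker sum was 14930, 22355 and 17151 CPM in PBS 1, 2 and 4 and 14607, 27419 and 16400 CPM in PTZ 1, 2 and 4, with PTZ 1 lowest and PTZ 2 highest as for the ribosomal protein sums, but PTZ 4 above PBS 1. PTZ 1 was the lowest library for 5 and PTZ 2 the highest for 7 of the 14 endothelial markers. The red cell marker sum was 6577, 10852 and 7338 CPM in PBS 1, 2 and 4 and 5788, 11683 and 6213 CPM in PTZ 1, 2 and 4, in the same order as the joint ribosomal protein sum. Fibroblast markers summed to 81.7, 87.3 and 143 CPM in PBS 1, 2 and 4 and to 245, 84.0 and 261 CPM in PTZ 1, 2 and 4. Neutrophil and lymphocyte markers summed to 425, 429 and 218 CPM in PBS 1, 2 and 4 and to 128, 353 and 121 CPM in PTZ 1, 2 and 4. Fibroblast markers were thus highest in PTZ 1 and PTZ 4, where ribosomal protein sums were lowest. The share of reads in no feature was 2.99%, 3.64% and 5.19% in PBS 1, 2 and 4. In PTZ 1, 2 and 4 that share was 9.34%, 3.38% and 4.49%. Among 250 other protein-coding genes with exons of up to 1000 bases in all, 44.4% were lowest in PTZ 1 and 32.8% highest in PTZ 2, and among 11518 longer ones (over 1500 bases) 18.8% and 15.7%.

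Between PTZ and PBS, no ribosomal protein gene passed the test. With edgeR's quasi-likelihood test and Benjamini-Hochberg adjustment over 13768 genes, 0 of 82 members had an adjusted p under 0.05, and 0 had an unadjusted p under 0.05 in either direction. Over all genes the same fit called 0% higher and 0% lower after adjustment, and at the unadjusted threshold 3.83% were higher and 3.38% lower. DESeq2 called 0.385% of all genes higher and 0.167% lower, limma-voom called 0.00726% higher and 0% lower, and neither called a member after adjustment, with 1 member each at an unadjusted p under 0.05. The groups overlapped in all 82 members, while in 7.3% of all genes every PTZ library was above every PBS library and in 7.04% every PTZ library was below.

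The members' log2 fold changes leaned slightly below 0 with all 6 libraries. They were negative in 69 of 82 members (47.3% of all genes), with a median of -0.12 beside 0.03 over all genes, and the median standard error (SE) of a member was 0.42. The median was -0.15 in the large subunit, -0.08 in the small subunit and -0.23 in the 5 tested paralogs. The range ran from -0.67 (Rplp2) to 0.49 (Rpl39l). Other short genes leaned the same way. Of the 250 other protein-coding genes with exons of up to 1000 bases, 173 were negative and 77 positive, with a median of -0.23. Without PTZ 1 the median of those short genes was -0.06.

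The lean turned with the PTZ library left out. Without PTZ 1, where Rpl3l also passed the filter, the log2 fold change was positive in 72 of 83 members and negative in 11 (48.1% of all genes were negative), with a median of 0.19 beside 0.02 over all genes. No member passed an unadjusted p of 0.05 in that fit, against 2.76% of genes higher and 3.17% lower, and the smallest adjusted p of a member by edgeR's quasi-likelihood test was 0.841, for Rpl3l. Without PTZ 1 the groups no longer overlapped in 2 members, the low-count paralogs Rpl39l and Rpl3l, which were higher in PTZ (11.6% of all genes), and in 0 members lower (11.6% of all genes).

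Without PTZ 2 the picture was the opposite. The log2 fold change was negative in 81 of 82 members (50.6% of all genes), with a median of -0.85 beside -0.01 over all genes. An unadjusted p under 0.05 was reached by 58 of 82 members, all lower, against 6.48% of genes lower and 4.57% higher. Both remaining PTZ libraries lay below all 3 PBS libraries in 60 of 82 members, against 14.7% of all genes, and in 0 members above them (15.5% of all genes). The smallest adjusted p of a member by edgeR's quasi-likelihood test was 0.362, so 0 members passed there too. The members are not replicates of each other, and a single library shifted nearly all of them. Leaving out PTZ 4 or PBS 2 also turned the members' median above 0.

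With the replicate number as a block, 76 of 82 members had a negative log2 fold change (48.2% of all genes), with a median of -0.30 beside 0.02 over all genes. By edgeR's quasi-likelihood test with that block, 0 members passed adjustment, and 3 had an unadjusted p under 0.05. These were Rplp2 and Rpl10a, lower in PTZ, and Rps2, higher in PTZ (5.59% of all genes were higher and 5.31% lower). The smallest adjusted p was 0.344, for Rplp2.

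**Figure D3:**
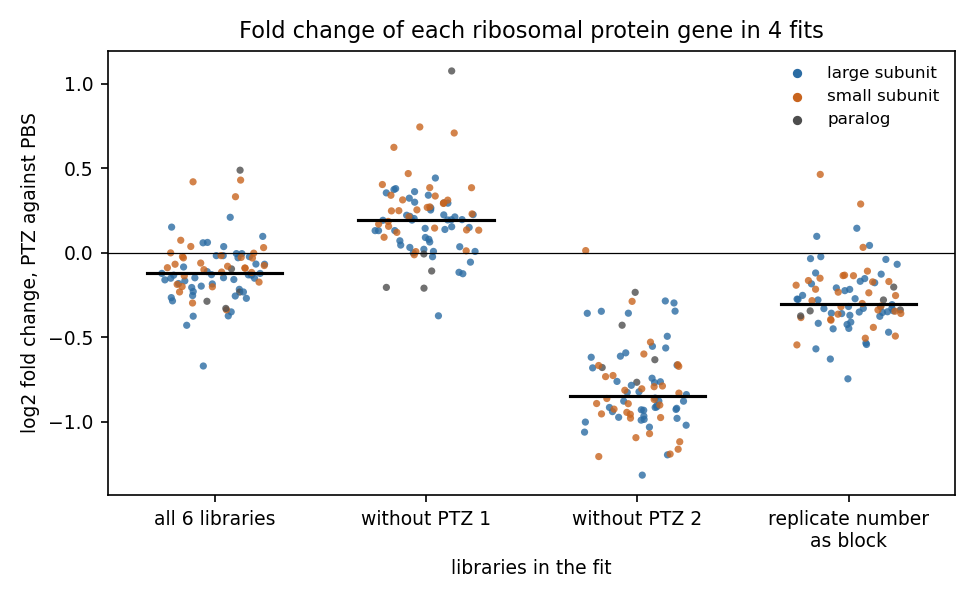
Log2 fold change of PTZ against PBS (vertical axis) of the 82 tested ribosomal protein genes in 4 fits (horizontal axis), 1 point per gene coloured by subunit or paralog, spread sideways only for sight, with the median as a black line. The median is -0.12 with all 6 libraries, 0.19 without PTZ 1, -0.85 without PTZ 2 and -0.30 with the replicate number as a block.

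Rpl22 (ENSMUSG00000028936, chr4:152325742-152334071, plus strand, GRCm38) encodes an RNA-binding protein on the outer face of the large subunit and carries the tag in every library here. It was measured at 76.1, 92.4 and 59.4 CPM in PBS 1, 2 and 4 and at 41.6, 106 and 86.0 CPM in PTZ 1, 2 and 4. The PTZ libraries enclosed the PBS range, and PTZ 4 lay above PBS 4, unlike in most members. The log2 fold change was 0.04 (SE 0.33, edgeR adjusted p = 0.992). It was 0.34 without PTZ 1, -0.29 without PTZ 2 and -0.04 with the replicate number as a block, so its direction was not settled. The gene's count does not tell tagged from untagged transcripts.

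Per kilobase of its principal transcript, Rpl22 stood at 37.5 CPM per kb, the third lowest of the 77 genes of both subunits, whose median was 406. Only Rpl13a (22.7 CPM per kb) and Rpl24 (24.98 CPM per kb) were lower. Values per kilobase depend on the annotated transcript length. Of the 50-base stretches in its principal transcript, 5.19% also occur in another gene's transcripts, and no other gene overlaps its exons. For Rpl24 that share was 81.7% with 47.0% of its exons overlapped by another gene, and for Rpl13a 57.4% and 35.4%, so the counts of those genes are uncertain.

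Rpl22l1 (chr3:28805436-28807424, plus strand), the paralog that can take the place of Rpl22 in the ribosome, was lowest in another library than most members. It was measured at 51.2, 60.4 and 43.6 CPM in PBS 1, 2 and 4 and at 36.2, 69.6 and 26.5 CPM in PTZ 1, 2 and 4. PTZ 4 was its lowest library and the third highest library of Rpl22. Its log2 fold change stood at -0.23 (SE 0.34, edgeR adjusted p = 0.907). Both genes are thus expressed. Rpl22 was the higher of them in CPM in each library. Per kb of principal transcript Rpl22l1 was higher, at 86.8 against 37.5 CPM per kb, so their ranking depends on the annotated lengths.

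The stalk proteins Rplp0, Rplp1 and Rplp2 form the arm of the large subunit that calls in the elongation factors. Rplp0, the base of the stalk, was at 455, 773 and 633 CPM in PBS 1, 2 and 4 and at 282, 858 and 388 CPM in PTZ 1, 2 and 4. Rplp1 was at 543, 1006 and 643 CPM in PBS 1, 2 and 4 and at 297, 1239 and 462 CPM in PTZ 1, 2 and 4. Both followed the library order of the family, with log2 fold changes of -0.29 and -0.13 by edgeR.

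Rplp2 (chr7:141447370-141451585, plus strand), the partner of Rplp1 in the stalk's dimers, was the member with the smallest p. It was at 188, 287 and 205 CPM in PBS 1, 2 and 4 and at 77.7, 198 and 151 CPM in PTZ 1, 2 and 4. Each PTZ library was below the PBS library of its number, pair 2 included, but PTZ 2 lay above PBS 1, so the groups overlapped. The log2 fold change was -0.67 (SE 0.33, unadjusted p = 0.068, adjusted p = 0.700, edgeR's quasi-likelihood test). It was -0.37 without PTZ 1, and no setting tried turned its sign.

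Only 4 members were lower in PTZ than in PBS in pair 2: Rplp2, Rpl10a, Rpl6 and Rpl35. Rpl10a, a protein of the mobile L1 stalk at the ribosome's exit site, was at 339, 510 and 421 CPM in PBS 1, 2 and 4 and at 167, 487 and 288 CPM in PTZ 1, 2 and 4. Rpl6, a large subunit protein, was at 378, 543 and 473 CPM in PBS 1, 2 and 4 and at 237, 524 and 333 CPM in PTZ 1, 2 and 4. Their log2 fold changes by edgeR were -0.43 and -0.35, with adjusted p of 0.816 and 0.828. In pair 2 both differed by less than the PBS libraries did among themselves.

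Among the most abundant large subunit messages per kilobase were Rpl41, which encodes the shortest ribosomal protein, at 1839 CPM per kb, Rplp1 at 1400 and Rpl8 at 1149. Rpl41 was at 853, 1582 and 962 CPM in PBS 1, 2 and 4 and at 436, 1858 and 731 CPM in PTZ 1, 2 and 4. Rpl8, a core protein of the large subunit, was at 905, 1612 and 1006 CPM in PBS 1, 2 and 4 and at 576, 2090 and 843 CPM in PTZ 1, 2 and 4. Both showed the common order with PTZ 1 lowest, and their log2 fold changes by edgeR were -0.17 and -0.01.

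Rpl5, which binds the 5S rRNA and together with Rpl11 can restrain the p53 regulator Mdm2, varied the least of the large subunit genes. It was at 405, 451 and 409 CPM in PBS 1, 2 and 4 and at 308, 563 and 374 CPM in PTZ 1, 2 and 4, a 1.83-fold range. Rpl36 varied the most there, 6.03-fold, from 81.8 CPM in PTZ 1 to 493 CPM in PTZ 2. The median range was 3.41-fold over the genes of both subunits and 2.42-fold over all genes tested. In the principal transcript of Rpl5, 93.8% of 50-base stretches occur in other genes too.

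Rpl3 and Rpl10, proteins near the peptidyl transferase centre and the tRNA entry site, and Rpl7 behaved like the family. Rpl3 was at 364, 525 and 456 CPM in PBS 1, 2 and 4 and at 267, 612 and 335 CPM in PTZ 1, 2 and 4. Rpl10 was at 607, 875 and 657 CPM in PBS 1, 2 and 4 and at 353, 1130 and 444 CPM in PTZ 1, 2 and 4. Rpl7 was at 815, 1102 and 791 CPM in PBS 1, 2 and 4 and at 578, 1163 and 685 CPM in PTZ 1, 2 and 4. PTZ 1 was lowest and PTZ 2 highest in each of them, and their log2 fold changes by edgeR lay at -0.15, -0.15 and -0.16.

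In the small subunit, Rpsa and Rps2 had the most positive log2 fold changes, without passing the test. Rpsa (chr9:120127689-120132369, plus strand), a protein of the small subunit also described as a laminin receptor, was at 244, 442 and 260 CPM in PBS 1, 2 and 4 and at 236, 735 and 294 CPM in PTZ 1, 2 and 4. PTZ 1 was only slightly below PBS 1 there, and PTZ 2 and PTZ 4 were above their PBS partners. For Rpsa the fold change on the log2 scale was 0.42 (SE 0.42, edgeR adjusted p = 0.857), and -0.29 without PTZ 2.

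Rps2 (chr17:24718116-24721929, plus strand), which lies near the mRNA entry channel, was at 62.3, 136 and 60.8 CPM in PBS 1, 2 and 4 and at 83.2, 170 and 95.4 CPM in PTZ 1, 2 and 4. PTZ was above PBS in all 3 pairs, and PTZ 1 was not the lowest library. The log2 fold change was 0.43 (SE 0.37, edgeR adjusted p = 0.821), and 0.01 without PTZ 2. Of its 50-base stretches 71.3% occur in the transcripts of 71 other genes, so its count is uncertain.

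The small subunit messages highest per kilobase were Rps14 at 1865 CPM per kb, Rps15 at 1318, Rps27 at 1229 and Rps9 at 971. Rps14, a protein of the platform of the small subunit, was at 1009, 2092 and 1297 CPM in PBS 1, 2 and 4 and at 757, 2571 and 1060 CPM in PTZ 1, 2 and 4. Rps15, a protein of the head near the decoding site, was at 453, 983 and 517 CPM in PBS 1, 2 and 4 and at 284, 1244 and 475 CPM in PTZ 1, 2 and 4. Both kept the library order of the family, and their log2 fold changes by edgeR were within 0.04 of 0.

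The widest ranges over libraries in the small subunit were those of Rps20 and Rps12. Rps20 was at 151, 339 and 221 CPM in PBS 1, 2 and 4 and at 79.7, 485 and 133 CPM in PTZ 1, 2 and 4, a 6.09-fold range. Rps12 was at 50.1, 136 and 69.8 CPM in PBS 1, 2 and 4 and at 36.8, 224 and 61.3 CPM in PTZ 1, 2 and 4, a 6.08-fold range. The range lay mostly within the PTZ group in both genes. Rps20 and Rps15a also had the lowest values per kilobase of the small subunit (63.4 and 61.9 CPM per kb), over annotated principal transcripts of 3706 and 5179 bases.

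Rps27a, made as a fusion with ubiquitin, was at 407, 647 and 473 CPM in PBS 1, 2 and 4 and at 252, 847 and 345 CPM in PTZ 1, 2 and 4. The X-linked Rps4x was at 363, 564 and 432 CPM in PBS 1, 2 and 4 and at 274, 658 and 370 CPM in PTZ 1, 2 and 4. Both followed the order of the family, with log2 fold changes of -0.08 and -0.06 by edgeR.

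The paralogs differed in level and in how far they moved with the family. Their sum was 607, 555 and 551 CPM in PBS 1, 2 and 4 and 390, 621 and 386 CPM in PTZ 1, 2 and 4, a 1.61-fold range against 3.33-fold for the genes of both subunits. Most of it came from Rps27l and Rpl7l1.

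Rps27l, a p53-responsive paralog of Rps27, was at 349, 329 and 283 CPM in PBS 1, 2 and 4 and at 209, 353 and 202 CPM in PTZ 1, 2 and 4. Rps27 itself was at 258, 609 and 393 CPM in PBS 1, 2 and 4 and at 191, 812 and 282 CPM in PTZ 1, 2 and 4. Rps27l thus varied 1.75-fold and Rps27 4.24-fold over the same libraries, and PBS 1 was the highest PBS library for the paralog and the lowest for Rps27. The log2 fold changes were -0.33 (SE 0.27) and 0.03 (SE 0.50), with edgeR adjusted p of 0.807 and 0.996. In Rps27, 98.6% of 50-base stretches occur in other genes' transcripts, and in Rps27l 22.4%.

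Rpl7l1, a paralog of Rpl7, was at 192, 145 and 208 CPM in PBS 1, 2 and 4 and at 132, 169 and 145 CPM in PTZ 1, 2 and 4. Its 1.57-fold range was the smallest of the members, and PBS 4 was its highest library. By log2 fold change it stood at -0.29 (SE 0.22, edgeR adjusted p = 0.799), and no setting tried turned its sign.

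Rpl36al was at 12.2, 18.1 and 12.9 CPM in PBS 1, 2 and 4 and at 11.8, 21.3 and 7.32 CPM in PTZ 1, 2 and 4, and its partner Rpl36a was at 175, 219 and 190 CPM and at 88.4, 282 and 116 CPM. PTZ 4 was lowest for the paralog and PTZ 1 for Rpl36a. Their log2 fold changes by edgeR were -0.10 and -0.27.

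Rpl39l (chr16:10170226-10174911, plus strand), a paralog best known from the testis, was counted with 41, 28 and 32 reads in PBS 1, 2 and 4 and with 0, 65 and 71 reads in PTZ 1, 2 and 4. That is 2.56, 2.76 and 2.42 CPM in PBS and 0, 6.45 and 4.44 CPM in PTZ, where 3 reads in PTZ 1 would be 0.220 CPM. The PBS libraries were alike and the PTZ libraries fell on both sides of them. Across groups its log2 fold change was 0.49 (SE 1.20, edgeR adjusted p = 0.953). Its partner Rpl39 was at 67.3, 78.9 and 83.9 CPM in PBS 1, 2 and 4 and at 26.7, 109 and 41.9 CPM in PTZ 1, 2 and 4.

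Rpl3l, known from striated muscle, had 4, 1 and 5 reads in PBS 1, 2 and 4 and 1, 15 and 13 reads in PTZ 1, 2 and 4. Rpl10l, known from the testis, had 0 reads in all 6 libraries, where 3 reads would be 0.187 to 0.298 CPM. Neither passed the filter, and intervals and limits of this kind cover counting error only. Rps4l is annotated as a pseudogene and was not a member.

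With the common level of each library taken out, 5 of 77 genes separated the groups, where none had before. The common level was the median log2 deviation of the 77 genes of both subunits in each library. Rpsa and Rpl23 were higher in PTZ (10.1% of the other protein-coding genes of at least 100 CPM were higher after the same step with their own median). The 3 that were lower in PTZ included Rpl38 and Rpl29 (8.05% of those other genes were lower). In both directions the members' share lay below that of the other genes, so nothing is read from the count.

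The largest differences after this step were those of Rps2, at 0.74 on the log2 scale, and Rpsa, at 0.57, while Rplp2 was lowest at -0.47. For Rpsa the values were -0.30, -0.15 and -0.41 in PBS 1, 2 and 4 and 0.39, 0.24 and 0.20 in PTZ 1, 2 and 4. For Rps2 they were -0.43, -0.02 and -0.68 in PBS and 0.72, -0.03 and 0.41 in PTZ, so that PTZ 2 fell just below PBS 2. For Rplp2 they were 0.30, 0.19 and 0.21 in PBS and -0.25, -0.68 and 0.20 in PTZ, with PTZ 4 inside the PBS range. Rpl39 followed at -0.35 and Rpl13, a large subunit protein, stood at 0.42. These values are descriptions, with no test.

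**Figure D4:**
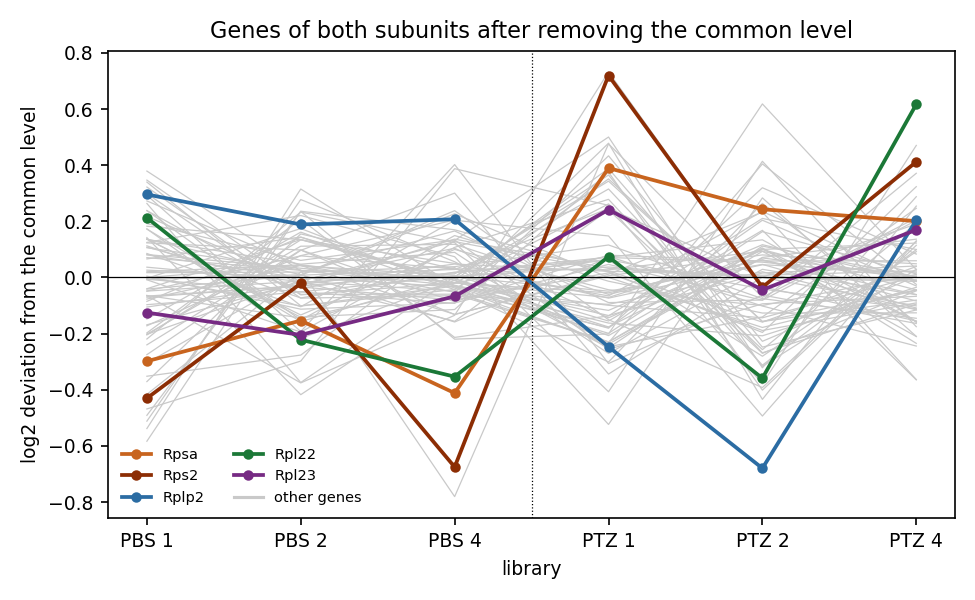
Log2 deviation of each of the 77 genes of both subunits from the common level of its library (vertical axis) by library (horizontal axis), with grey lines for the other genes and colours for Rpsa, Rps2, Rplp2, Rpl22 and Rpl23. Rpsa lies between -0.41 and -0.15 in PBS and between 0.20 and 0.39 in PTZ, and most grey lines stay close to 0.

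The median spread over the libraries was widest among the shortest messages. The 17 genes of both subunits with a principal transcript of up to 600 bases had a median range of 4.17-fold (2.99-fold to 6.08-fold). The 32 genes of over 600 to 1000 bases had a median of 3.27-fold, and the 28 longer ones 3.39-fold. The long annotated transcripts of Rps20 and Rps15a were exceptions with 6.09-fold and 4.08-fold.

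**Figure D5:**
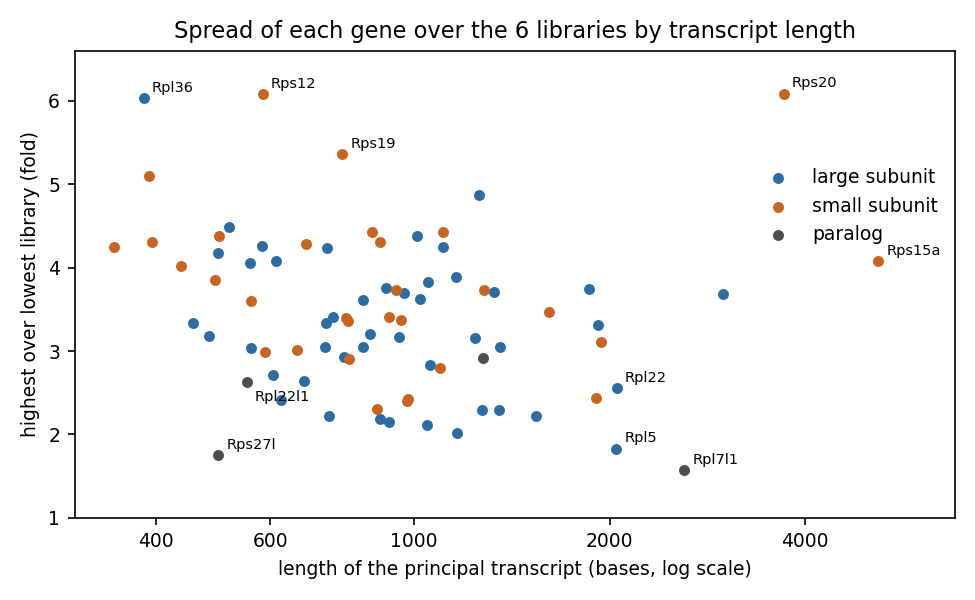
Ratio of the highest to the lowest library (vertical axis, fold) of each tested member by the length of its principal transcript (horizontal axis, bases, log scale), coloured by subunit or paralog. The 17 genes of both subunits of up to 600 bases have a median of 4.17-fold, and Rpl5 (1.83-fold), Rps27l (1.75-fold) and Rpl7l1 (1.57-fold) vary least.

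Many members share sequence with other genes, which limits what a single count says. Over the 77 genes of both subunits the median share of 50-base stretches found in another gene was 51.7%, and 37 had exons overlapped by another gene. The 9 genes with a share of up to 25% had a median level of 179 CPM per kb (37.5 to 1149). The 36 genes of over 25% to 60% had a median of 410 CPM per kb, and the 32 genes with over 60% had 411 CPM per kb. The rows of 293 ribosomal protein pseudogenes summed to 65.8, 146 and 81.7 CPM in PBS 1, 2 and 4 and to 69.2, 189 and 69.1 CPM in PTZ 1, 2 and 4. That was far below the members' sums, and PTZ 2 and PBS 2 were again the highest libraries. Reads without a unique alignment, from 6.36% of all reads in PBS 1 to 9.99% in PTZ 2, were counted for no gene. The low pseudogene sum therefore does not show how many reads members and copies share.

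Fau and Rack1, parts of the ribosome whose symbols the pattern does not cover, had PTZ 2 as their highest library, as most members did. Fau, a fusion of a ubiquitin-like protein with a small subunit protein, was at 589, 1104 and 770 CPM in PBS 1, 2 and 4 and at 340, 1711 and 664 CPM in PTZ 1, 2 and 4. Rack1, a scaffold on the head of the small subunit, was at 278, 416 and 361 CPM in PBS 1, 2 and 4 and at 263, 608 and 291 CPM in PTZ 1, 2 and 4. Both log2 fold changes were 0.14, and neither passed edgeR's unadjusted or adjusted threshold.

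Messages of other genes with a TOP tract, such as those of translation factors, were described beside the members. Of 18 tested, 8 had a positive and 10 a negative log2 fold change, with a median of -0.03 beside 0.03 over all genes and 0 past the unadjusted threshold. PTZ 1 was the lowest library in 27.8% and PTZ 2 the highest in 44.4% of them. Their sum was 5186, 7165 and 5870 CPM in PBS 1, 2 and 4 and 4964, 8068 and 5618 CPM in PTZ 1, 2 and 4.

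Genes that build ribosomes had their own spread over the libraries, with PTZ 1 lowest in 14.8% and PTZ 2 highest in 11.1% of them, beside 20% and 17.2% of all genes tested. Of 54 tested genes for ribosome assembly and rRNA synthesis, 15 had a positive and 39 a negative log2 fold change, with a median of -0.17, and 2 were lower at an unadjusted p under 0.05. Over all genes 47.3% were negative, the median was 0.03 and 3.38% were lower at that threshold, so the count of 2 in 54 is near the background. Nop56, a core protein of the box C/D particles that methylate rRNA, was at 85.9, 100.7 and 109 CPM in PBS 1, 2 and 4 and at 79.1, 62.5 and 69.7 CPM in PTZ 1, 2 and 4. Its log2 fold change was -0.48 (SE 0.21, edgeR adjusted p = 0.690). All PTZ libraries lay below all PBS libraries for Nop56, as in 7.04% of all genes tested. Heatr1, a factor of early rRNA processing, had -1.23 (SE 0.51, edgeR adjusted p = 0.690). The groups overlapped for Heatr1, with PBS 2 at 8.39 CPM and PTZ 1 at 9.30 CPM.

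Regulators of ribosomal protein synthesis were described in the same way. Of 21 tested genes of the mTORC1, La-related and Myc list, 16 had a positive and 5 a negative log2 fold change, with a median of 0.24, and 2 were higher at an unadjusted p under 0.05. Over all genes 47.3% were negative, the median was 0.03 and 3.83% were higher at that threshold. The list mixes parts of mTORC1 with its inhibitors, so the count of signs gives no direction for the pathway. The genes named here were picked by their p, and the activity of mTORC1 was not tested. Ddit4, an inhibitor of mTORC1 induced by stress, was at 25.7, 38.6 and 22.8 CPM in PBS 1, 2 and 4 and at 54.8, 145 and 111 CPM in PTZ 1, 2 and 4. Sesn1, a p53-responsive inhibitor of mTORC1, was at 118, 93.2 and 146 CPM in PBS 1, 2 and 4 and at 242, 210 and 287 CPM in PTZ 1, 2 and 4. In both genes every PTZ library was above every PBS library, as in 7.3% of all genes tested.

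Neither passed adjustment. The log2 fold change of Ddit4 was 1.83 (SE 0.36, adjusted p = 0.407) and that of Sesn1 1.05 (SE 0.24, adjusted p = 0.446), by edgeR's quasi-likelihood test. Tsc1, part of the complex that holds mTORC1 off, stood at 0.64 (SE 0.37, edgeR adjusted p = 0.732).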

How the data were processed

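RNA labelled as from cortex brain endothelial cells was measured in 6 libraries. The authors deposited raw read counts per Ensembl gene, and the build was GRCm38, per the submitters' processing notes, which list HTSeq, TopHat2 2.1.1, edgeR and CASAVA without roles. Annotation release and strand setting are not given in the sources used, so overlapping and antisense genes cannot be told apart. A scaled signal per library was deposited too, equal to the count over 1 factor within 0.01 for 100% of values, which served only as an alternative scaling. The 5 summary rows that name no gene held 16.1% to 22.9% of reads and were left out.

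Counts were analysed with edgeR 4.0.16, DESeq2 1.42.0 and limma 3.58.1 in R 4.3.3. Of 34777 genes with a read, filterByExpr (minimum count 10, minimum total 15) kept 13768. Levels are CPM on TMM-scaled library sizes (factors 0.864 to 1.14), per kilobase of the APPRIS principal transcript where stated. The main test was edgeR's quasi-likelihood test with the group as factor, 2-sided, with Benjamini-Hochberg adjustment over all genes and a threshold of 0.05. The biological coefficient of variation was 0.470. The scripts were tested on simulated counts. No libraries of a group agreed within sampling noise (chi-square per degree of freedom 43.8 to 99.1).

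Deviations from the group means correlated across genes at 0.167, 0.197 and 0.217 for the libraries that share a number in their titles, and at -0.127 to -0.062 for all other combinations. Centring each group on its own mean largely forces the other combinations below 0 once the same-numbered ones are above it. Their negative values therefore add no separate support for pairing. By a rule of over 0.1 in each pair, pairing was used for the side-by-side values and the fit with a replicate block. The main test and the other fits used the group alone, without pairing.

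Coordinates, gene types, transcripts and the 50-base stretches came from GENCODE M21 (GRCm38), which held 53360 of the IDs, and start windows from RefSeq (GRCm38.p6). The stretches were those of each member's principal transcript, looked up in all transcripts of other genes. Members and lists were chosen with earlier results of these data known. Named members were Rpl22, the stalk genes, Rpsa, Rps27a and the paralog pairs, the 5 per direction with the smallest p, the 4 highest and 2 lowest per kilobase in each subunit, the 3 widest and 3 narrowest ranges, and up to 4 members that went against the usual lowest library. Up to 3 genes per list were named by their p. Some genes that these rules name are not reported here. Rpl36, Rpl35 and Rpl13 as extremes, Rpl23, Rpl38 and Rpl29 and the start windows were chosen after their values were seen.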

Additional observations from a re-analysis of the deposited data

How the results depend on the processing

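The count of members past the threshold was 0 in every setting tried, with edgeR's quasi-likelihood test, DESeq2 and limma-voom, and over all settings the smallest adjusted p of a named member was 0.344. DESeq2 without PTZ 1, an alternative chosen after seeing the data, also called 0 members. Over all genes, 77 were higher and 44 lower with no low-count filter, 53 higher and 23 lower in DESeq2, and 1 higher in limma-voom. Leaving out 1 library gave 0 to 8 higher (8 without PBS 2) and 0 lower. The median log2 fold change ranged under those settings from -0.87 to 0.17 in the large subunit, from -0.87 to 0.25 in the small subunit and from -0.63 to 0.03 in the paralogs. The log2 ratio of the sums ranged from -0.80 to 0.18 and from -0.80 to 0.26. The lowest values came without PTZ 2. Among the members named by rule, those whose sign turned when 1 library was left out had these ranges, and most other members turned too: Rpl3 -0.61 to 0.079, Rpl5 -0.35 to 0.15, Rpl7 -0.55 to 0.035, Rpl8 -0.76 to 0.32, Rpl10 -0.88 to 0.14, Rpl13a -0.30 to 0.25, Rpl22 -0.29 to 0.34, Rpl22l1 -0.77 to 0.027, Rpl24 -0.35 to 0.47, Rpl36a -0.97 to 0.031, Rpl36al -0.63 to 0.20, Rpl39l -0.24 to 1.08, Rpl41 -0.99 to 0.20, Rplp0 -0.93 to 0.0071, Rplp1 -0.98 to 0.22, Rps4x -0.53 to 0.18, Rps9 -0.79 to 0.25, Rps12 -0.83 to 0.82, Rps14 -0.73 to 0.32, Rps15 -0.81 to 0.44, Rps15a -0.79 to 0.34, Rps20 -1.19 to 0.38, Rps27 -0.86 to 0.38, Rps27a -0.81 to 0.23 and Rpsa -0.29 to 0.72. Under the replicate block the log2 fold change was -0.040 for Rpl22, -0.34 for Rpl39l, -0.17 for Rps27 and -0.15 for Rps15, and the block changed no call. With the authors' scaling factors it was -0.033 for Rpl22, -0.044 for Rps27, -0.036 for Rps15 and -0.0076 for Rpl13a. Without the filter it was -0.0097 for Rpl22, -0.025 for Rps27 and -0.017 for Rps15. In limma-voom it was -0.053 for Rpl22, -1.44 for Rpl39l, -0.16 for Rps27 and -0.15 for Rps15. By library total alone it was -0.011 for Rps27 and -0.0041 for Rps15. Rpl39l has no value under the filter of a mean of 5 CPM, which it did not pass. The cause of these shifts was not tested. Libraries of the same group differed by more than sampling noise, which limits what these 6 libraries can show.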
